A study of Mus musculus with 3 samples.

Results

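Methylated DNA of mouse sperm was profiled at the genes of homeobox and other developmental transcription factors, the proteins that set cell identity and body plan in the embryo. The members were the windows of 500 bp whose gene symbol belongs to the Hox, Pax, Sox, Gata, Fox, Tbx, Lhx, Dlx, Nkx, Six3-like, Meis, Irx, Zic, Pou, Msx, Otx, Emx or Runx families, each window counted once per gene, with 1 Fox gene left out by the rule. They came to 638 windows in 80 gene symbols, of 143198 windows in all. The pattern of letters also took in 9 symbols that are not such factors, with 54 windows. These are the RNA genes Sox2ot, Pax6os1, Six3os1, Nkx2-2as, Dlx1as and Emx2os, the thromboxane genes Tbxa2r and Tbxas1, and Runx1t1, which codes for a corepressor. The other 71 symbols, with 584 windows, are transcription factor genes.

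The sperm came from the cauda epididymis of C57BL/6 mice aged 14 weeks. From 8 weeks of age the animals had been injected intraperitoneally with saline (vehicle control), with DXR at 0.02 mg/kg (low dose) or with DXR at 0.2 mg/kg (high dose). DXR is doxorubicin, a chemotherapy drug that poisons topoisomerase II. Injections were given 2 times a week for 5 weeks, and sperm was taken 4 days after the last one. In MBD-seq, the sequenced fragments are those caught by MBD2, a protein that binds methylated CpG, so a window needs both CpG sites and methylation to give signal. There was 1 library per group, so no difference below has a replicate check, a test or a p-value, and each is a difference between these 3 libraries. The number of mice behind a library was not given.

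In the deposited table each window carries a methylation score called RMS. In each of the windows at least 1 of the libraries exceeded RMS 1, so a window is "listed" here when it passed that limit. A place that is not listed may be unmethylated, poor in CpG or poorly covered by reads, and these cannot be told apart in the table. Markers of the tissue were read first. All 5 paternally methylated imprinted loci looked up (H19, Meg3, Rasgrf1, Zdbf2 and Dlk1) had listed windows, 22 in all, and the strongest H19 window at exon 1 had RMS of 5.58 (control), 5.94 (low dose) and 5.65 (high dose). Of 14 germline genes whose promoters are methylated in body cells, 5 had a listed window and 0 of their 18 windows lay at exon 1 or upstream. Of 13 loci methylated on the maternal copy, 7 were listed, with exon 1 windows at Grb10 and Peg10 only. Those exon 1 windows had RMS between 0.814 and 1.89 over the 3 libraries. At the high dose the median change against control, on the scale defined below, was -0.06 over the paternally methylated loci, -0.05 over the germline genes and -0.20 over the maternally methylated loci. Of the 28 windows of the maternally methylated loci 3 (10.7%) were lower by the limit defined below, beside 2.52% of all windows. They lay in Airn and Grb10, away from exon 1. Of the windows of the paternally methylated loci and germline genes 0 were lower. The part of other cells in the results was not tested.

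Developmental transcription factor genes often lie in long stretches of CpG-rich DNA that stay free of methylation, and in many cell types they are held silent by Polycomb complexes instead. The Hox genes sit side by side in 4 clusters and specify position along the body axis. Mature sperm DNA is highly methylated over most of the genome, with CpG islands as the main exception. Long genes such as Sox5, Foxp1 and Runx1 differ from the Hox genes in that most of their length is intron, with ordinary CpG content.

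No listed window reached a promoter among the transcription factor genes whose promoter could be looked up. RefSeq promoter entries were at hand for 137 of the 203 protein-coding factor genes, 170 starts in all. The other genes had no such entry, and their promoters were not examined. A listed window overlapped the stretch from 250 bases before to 50 bases after the start at 0 of the 170. Over all RefSeq protein-coding genes with such an entry this stretch was overlapped at 545 of 21263 starts (2.56%). The promoters of the families held a median of 13.5 CpG in the 250 bases before the start, against 10 over all genes. The share of all promoters that were overlapped moved with CpG content. It was 2.75% for promoters with 0 to 5 CpG in 300 bases, 9.63% with 6 to 10 and 3.02% with 11 to 15. With 16 to 20 it was 0.422% and with 21 or more 0.238%. The share was thus highest at 6 to 10 CpG, not at the lowest content. The 170 member starts numbered 24, 25, 32, 18 and 71 in the same order of CpG content. The part of CpG content in the count of 0 was not tested.

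The promoters below, 250 bases before a RefSeq start on GRCm38.p6 (the assembly of mm10), are shown because a listed window lies close by (Runx1, Foxn1, Runx3 distal, Pou5f1 and Hoxb4) or as CpG-rich contrasts (Runx3 proximal and Hoxd13). They are written 5′ to 3′ along the gene's strand, and capitals mark each CpG. The sequences are credited to RefSeq.
Runx1 distal start (chr16:92826075-92826324, minus strand): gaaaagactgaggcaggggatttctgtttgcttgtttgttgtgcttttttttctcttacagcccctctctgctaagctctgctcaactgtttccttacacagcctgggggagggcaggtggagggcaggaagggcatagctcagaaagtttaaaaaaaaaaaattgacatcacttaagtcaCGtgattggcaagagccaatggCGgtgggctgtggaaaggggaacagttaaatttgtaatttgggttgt
Foxn1 (chr11:78386609-78386858, minus strand): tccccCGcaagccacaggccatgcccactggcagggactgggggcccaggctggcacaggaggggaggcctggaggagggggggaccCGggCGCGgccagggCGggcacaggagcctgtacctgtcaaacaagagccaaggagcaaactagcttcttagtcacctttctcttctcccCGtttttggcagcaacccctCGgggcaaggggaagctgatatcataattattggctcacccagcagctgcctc
Runx3 distal start (chr4:135120395-135120644, plus strand): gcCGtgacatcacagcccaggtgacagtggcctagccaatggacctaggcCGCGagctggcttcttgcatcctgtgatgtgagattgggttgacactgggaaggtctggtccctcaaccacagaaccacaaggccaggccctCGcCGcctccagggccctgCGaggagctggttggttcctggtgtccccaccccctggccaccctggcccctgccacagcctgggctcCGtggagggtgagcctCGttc
Pou5f1 (chr17:35505782-35506031, plus strand): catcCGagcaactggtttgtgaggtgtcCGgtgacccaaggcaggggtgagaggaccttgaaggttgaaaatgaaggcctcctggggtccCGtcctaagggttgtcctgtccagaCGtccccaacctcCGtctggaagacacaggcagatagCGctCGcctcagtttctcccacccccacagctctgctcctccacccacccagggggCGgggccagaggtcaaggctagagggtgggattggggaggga
Hoxb4 (chr11:96318017-96318266, plus strand): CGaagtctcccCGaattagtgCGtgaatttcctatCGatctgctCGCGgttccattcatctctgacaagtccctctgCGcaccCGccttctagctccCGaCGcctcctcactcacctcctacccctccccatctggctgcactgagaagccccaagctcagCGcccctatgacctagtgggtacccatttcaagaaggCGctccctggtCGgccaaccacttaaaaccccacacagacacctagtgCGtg
Runx3 proximal start (chr4:135152295-135152544, plus strand): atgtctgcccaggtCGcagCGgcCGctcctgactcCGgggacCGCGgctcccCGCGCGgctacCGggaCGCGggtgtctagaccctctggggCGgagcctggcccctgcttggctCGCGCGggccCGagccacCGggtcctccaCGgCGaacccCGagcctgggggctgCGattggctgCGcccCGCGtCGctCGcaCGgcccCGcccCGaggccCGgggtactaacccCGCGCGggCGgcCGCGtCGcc
Hoxd13 (chr2:74667975-74668224, plus strand): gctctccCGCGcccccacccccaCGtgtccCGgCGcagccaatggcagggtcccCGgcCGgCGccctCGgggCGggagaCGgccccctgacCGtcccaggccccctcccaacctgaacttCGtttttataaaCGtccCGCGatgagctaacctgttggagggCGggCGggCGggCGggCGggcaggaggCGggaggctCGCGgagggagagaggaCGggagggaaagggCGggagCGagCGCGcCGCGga

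These sequences hold 2 CpG (Runx1 distal), 7 (Foxn1), 8 (Runx3 distal), 8 (Pou5f1), 14 (Hoxb4), 38 (Runx3 proximal) and 31 (Hoxd13). Runx1 and Runx3 each have a distal and a proximal start here, which differ in CpG content. The Runx1 distal start had a listed window with its centre 0.324 kb inside the gene (chr16:92825501-92826000), the shortest distance for any of the 170 starts, and RMS was 1.06 in control, 0.825 with the low dose and 1.02 with the high dose. The Runx1 proximal start, with 27 CpG, was 8.08 kb from the nearest listed window. For Runx3, which acts in T cells and sensory neurons, the window 0.606 kb inside the distal start (chr4:135121001-135121500, exon 1) had RMS 2.46, 1.45 and 1.31 in the same order. Its proximal start was 2.21 kb from the nearest listed window, whose RMS was 0.857, 1.13 and 0.445. Runx2 did not follow the same order, since its 1 start in the RefSeq table held 2 CpG in 300 bases and was 9.88 kb from the nearest listed window, the farthest of the 5 Runx starts.

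The other starts with a listed window close by were few. Foxn1, needed for the thymic epithelium, had an exon 1 window 0.358 kb inside the gene with RMS 1.28, 0.813 and 0.859. Pou2f2, a B cell factor, had a window 0.710 kb inside with RMS 1.62, 2.35 and 1.56. A window 1.02 kb before the RefSeq start of Hoxb4 had RMS 1.29, 0.478 and 0.812. Only the control passed the limit there, and the table labels the window as exon 1 of a Hoxb4 transcript, which is not the one RefSeq starts from. Pou5f1, which codes for the pluripotency factor Oct4, had a window 1.22 kb inside the gene with RMS 1.35, 1.12 and 1.88. In all, 4 of the 170 starts (2.35%) had the centre of a listed window within 1 kb and 13 (7.65%) within 2 kb, against 4.89% and 11.2% over all genes.

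The distance to the nearest listed window differed among the families. The median was 17.0 kb over the 170 starts, against 9.67 kb over all protein-coding starts. It was 2.21 kb for the 5 Runx starts, 8.92 kb for the 32 Fox starts, 21.9 kb for the 18 Sox starts and 34.1 kb for the 24 Hox starts. The farthest was Hoxd13, which patterns the digits, with 114 kb to the nearest listed window. Starts cluster along the chromosome, so neighbouring Hox genes share the same nearest window and are not independent points. The thinning was not confined to the promoter. From 20 to 10 kb before the starts 2.12% of the 500 bp places were listed, against 4.05% over all genes, and from 10 to 20 kb after them 2.68%, against 4.84%. From 2 kb before to 1 kb after the starts it was 1.08% (11 of 1020 places), against 1.78%.

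**Figure D1:**
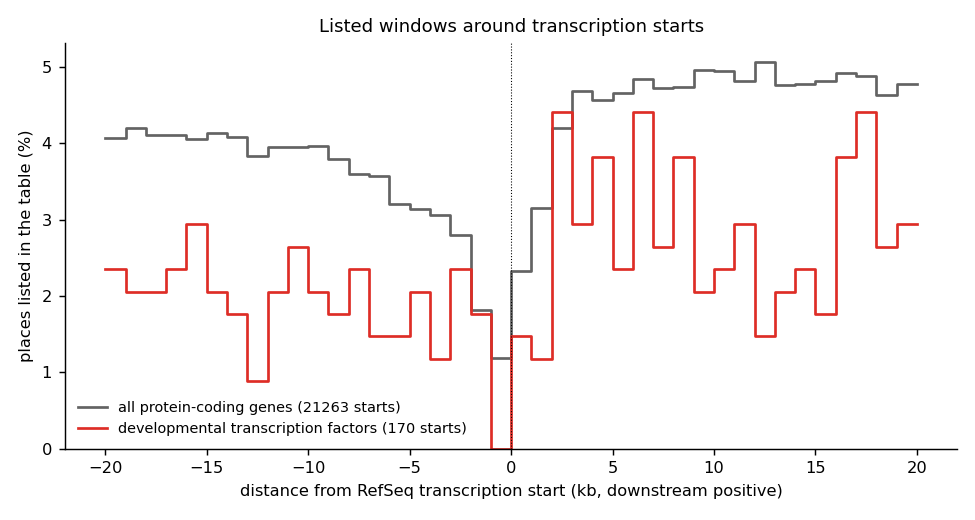
Share of 500 bp places that were listed (y axis, percent) by distance from the RefSeq gene start in kb (x axis, direction of transcription to the right), for transcription factor members (170 starts) and all protein-coding genes (21263 starts). Both lines dip around the start, and the members lie lower over most of the 20 kb on either side.

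Listed genes were the longer ones. RefSeq has 206 protein-coding genes whose symbols match the families, and 74 of them (35.9%) had a listed window, against 50.7% of all protein-coding genes. The median gene length was 24.96 kb for the listed members and 4.64 kb for those not listed. Over all protein-coding genes the same medians were 30.4 kb and 7.88 kb. A longer gene offers more windows, and per place the difference between members and other genes was small. Within the bodies of the transcription factor genes 4.04% of places were listed (610 of 15098), against 3.80% over all protein-coding genes. That average hid a wide range, from 0% in Zic and Otx, 1.20% in Irx and 1.25% in Hox to 3.83% in Sox, 5.60% in Fox and 6.64% in Runx.

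Most windows were in a small number of long genes, with 467 (73.2%) in the 15 genes that had 10 or more. Sox5, a chondrocyte and neural factor, had 98 windows, Foxp1, a forkhead repressor of the immune and nervous systems, had 75, the forkhead gene Foxn3 had 53 and Runx1, the master gene of blood stem cell formation, had 41. Together these 4 genes held 267 windows (41.8%). The others of the 15 were Foxo3 (31), Sox2ot (23), Foxk1 (22), Runx2 (21), Runx3 (18), Pax5 (17), Sox6 (17), Pax7 (14), Pou2f2 (14), Tbxas1 (12) and Foxn4 (11). At the other end, 26 genes had 1 window. Neighbouring windows often came together, with 158 pairs that directly follow each other in the same gene. Fragments of about 300 bp can spread over such neighbours, so they are not independent.

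By family, all 3 Meis genes, partners of Hox proteins on DNA, were listed with 10 windows, and Runx1, Runx2, Runx3 and Runx1t1 with 82. In the Gata family, zinc finger factors of blood and heart, 5 of 6 genes were listed with 10 windows, and Gata1 was not. Among the T-box genes 8 of the 10 listed are factors (Tbx2, Tbx3, Tbx4, Tbx6, Tbx10, Tbx15, Tbx19 and Tbx21). Of 43 Fox genes, without the one left out, 18 were listed with 230 windows, largely from the Foxk, Foxn, Foxo and Foxp groups. The early embryonic Foxa, Foxb, Foxc and Foxd genes were not listed. Of 19 Sox genes 7 were listed, and Sox2, Sox9 and Sox17, factors of stem cells, of cartilage and testis, and of endoderm, were not. All 5 Zic genes and the head factors Otx1 and Otx2 had no listed window annotated to them. Of 14 Nkx genes Nkx6-2 alone was listed, of 6 Irx genes Irx6, of 6 Dlx genes Dlx3, and of 3 Msx genes Msx3.

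**Figure D2:**
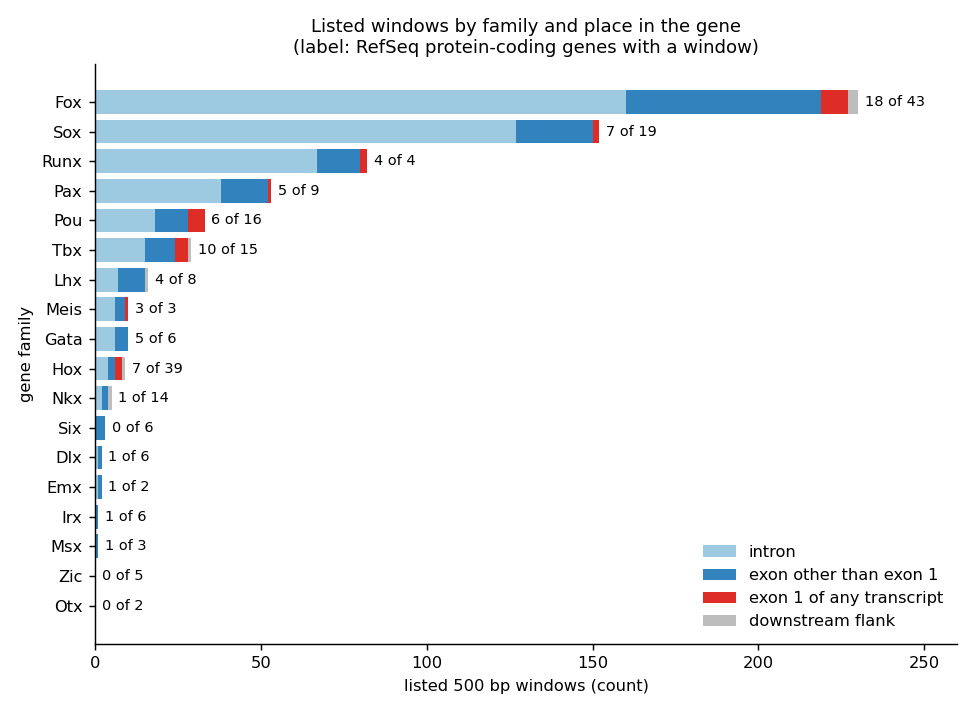
Number of listed 500 bp windows (x axis) per gene family (y axis), coloured by place in the gene, with the number of RefSeq protein-coding genes listed beside each bar. Fox (230), Sox (152) and Runx (82) windows are mostly intronic, and Zic and Otx have none.

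Within the genes, 452 of the 638 windows (70.8%) were intronic, 154 (24.1%) overlapped an exon other than exon 1, 25 (3.92%) overlapped exon 1 of some transcript, 7 (1.10%) lay in the downstream flank and 0 in the upstream flank of 500 bp. Over all 88429 pairs of a gene and a window the shares were 53.7% intronic, 37.9% other exon, 6.68% exon 1, 1.14% downstream and 0.561% upstream. The listed windows lay far inside the genes. For the 584 windows of factor genes the median distance from the RefSeq gene start was 90.3 kb, a value set largely by the long genes. The last 25% of the gene body held 39.6% of them and the 25% next to the start 12.0%. Measured from the nearer edge of the window, not its centre, 6 lay within 1 kb of the gene start, in Runx1, Foxn1, Hoxb4, Pou5f1 and Runx3.

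The Hox clusters held few listed windows. They span 492 kb with 39 genes, and 12 of 988 places (1.21%) were listed. Most places are not listed elsewhere either. Over all protein-coding genes 3.80% of places in gene bodies and 4.05% of places within 20 kb of a start were listed. The HoxD cluster had 0 of 195 places, HoxA 1 of 212, HoxB 6 of 349 and HoxC 5 of 232. Of the 39 genes 7 had a window annotated to them, 9 windows in all. Of the other 3 windows, 1 in HoxC is annotated to the long RNA Hotair, and 1 in HoxC and 1 in HoxB (chr11:96231001-96231500, RMS 1.37, 0.792 and 0.635) to no gene.

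The single HoxA window lay in an intron annotated to Hoxa3 (chr6:52180001-52180500), a gene of pharyngeal arch patterning, and RMS was 2.32 in control, 3.03 with the low dose and 2.43 with the high dose. In HoxC the adjacent intronic windows of Hoxc4 (chr15:103032501-103033000 and chr15:103033001-103033500) had RMS 1.78, 1.93 and 2.34, and 1.97, 2.05 and 2.76. These 3 were the windows with the highest score in every library among the 9 Hox windows. The exon 1 window of Hoxb3 (chr11:96323001-96323500) had RMS 1.67, 1.52 and 1.90, close to one another. The adjacent exon 2 windows of Hoxb7 (chr11:96289001-96289500 and chr11:96289501-96290000) were below 1 in control, at 0.863 and 0.908, and above 1 in both treated libraries, at 1.01 and 1.26 for the low dose and 1.07 and 1.16 for the high dose. The downstream window of Hoxb5 had 1.66, 1.42 and 1.46, and the intronic window of Hoxc9 had 1.41, 1.55 and 1.04. Over the 9 windows RMS ranged from 0.863 to 2.32 in control, 0.478 to 3.03 at the low dose and 0.812 to 2.76 at the high dose, so the ranges of the libraries overlapped.

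Exon 1 windows belonged for the most part to inner or alternative transcripts. Of the 24 in factor genes, 4 lay within 1 kb of the RefSeq gene start and 14 more than 10 kb from it, by the nearer edge. The strongest, in Foxp1 (chr6:98929501-98930000), is exon 1 of 1 transcript and a late exon of others, and RMS was 5.93, 6.95 and 7.66 in control, low dose and high dose. A Foxp1 window further towards the start (chr6:99162501-99163000) had RMS 2.32, 3.71 and 3.30, and the window at chr6:99435001-99435500 had 2.88, 2.90 and 3.12. In these 3 Foxp1 windows the control was the lowest library. The other Foxp1 exon 1 windows were lower than control at the high dose, with RMS 1.76, 1.23 and 0.799 at chr6:99096001-99096500 and 1.10, 1.37 and 0.584 at chr6:99003501-99004000.

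In Pou6f1, a brain POU factor, adjacent windows (chr15:100585501-100586000 and chr15:100586001-100586500) had RMS 2.24, 1.96 and 2.24, and 3.31, 3.82 and 3.85. Foxm1, a cell cycle factor, had 2.67, 2.87 and 2.84, and Tbx3, a limb and heart factor, had 2.02, 1.66 and 2.25. Pou2f3, the tuft cell factor, had 1.91, 1.66 and 2.01, and Pax6, needed for the eye, had 1.82, 1.73 and 1.57. Tbx19 (chr1:165153501-165154000) had 2.17, 1.79 and 1.73, and Foxn4 (chr5:114263001-114263500) had 1.59, 2.07 and 1.83. The 3 libraries lay close together in all of these. On the log2 scale used below, the exon 1 windows that differed most from control were in Meis2, Pou6f1 (chr15:100593501-100594000) and Sox5 (chr6:144209001-144209500, RMS 1.72, 1.005 and 0.506). The first pair is described with the comparisons.

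**Figure D3:**
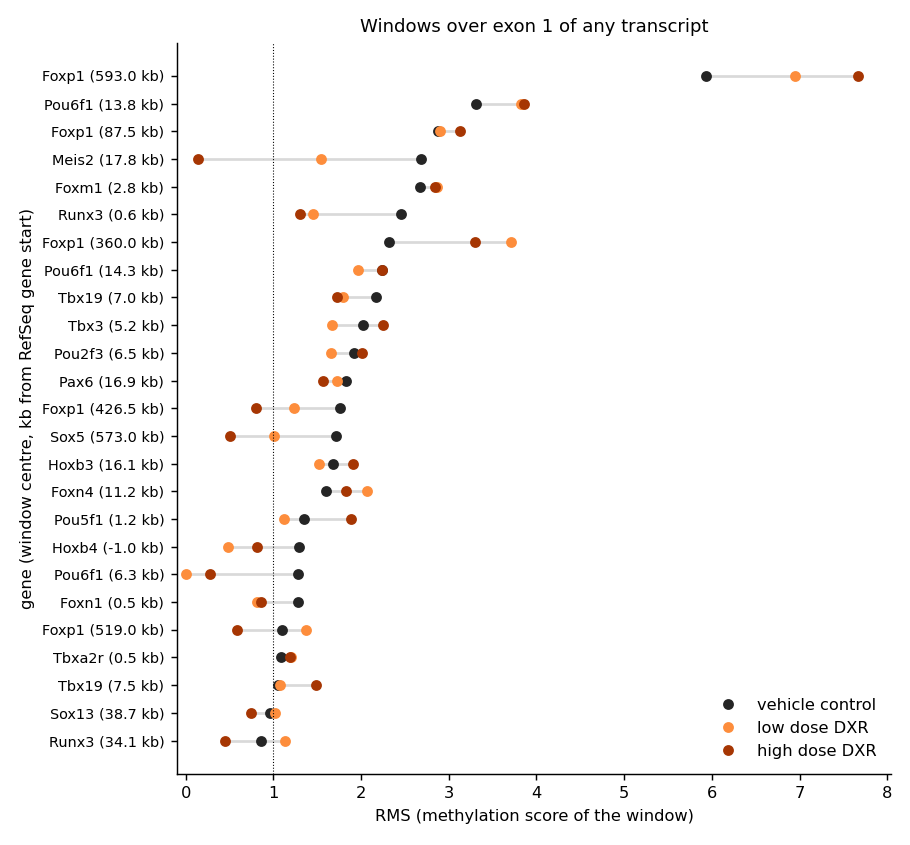
RMS (x axis) of each of the 25 exon 1 windows (y axis, gene and distance of the window centre from the RefSeq gene start in kb) in the libraries of control, low and high dose, 1 point per library. Most windows have their 3 points close together, while Meis2 runs from 2.68 in control to 0.145 at the high dose.

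The strongest windows of the families lay in gene bodies and were high in every library. A window over exons 2 to 4 of Tbx19 (chr1:165147501-165148000), which codes for the pituitary corticotroph factor Tpit, had RMS 8.59 in control, 7.42 with the low dose and 9.10 with the high dose. An intronic Sox5 window (chr6:144380001-144380500) had 8.34, 8.12 and 9.28, and another (chr6:144757501-144758000) had 7.18, 7.82 and 6.47. Sox6, the close relative of Sox5 in cartilage and muscle, had 7.03, 5.98 and 5.73 in an intron (chr7:115774501-115775000). None of these differed between libraries by a change near 1.

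The rest of the 10 highest control values comprised an exon 7 and 13 to 14 window of Sox5 (6.81, 4.78 and 5.14), an intronic window of the antisense RNA gene Pax6os1 (6.57, 7.32 and 7.91), exon 4 of Foxk1 (6.29, 4.06 and 4.77), an intronic window of Foxo3 (6.22, 4.55 and 5.20) and the intronic and exon 1 windows of Foxp1 (6.12, 5.60 and 7.45 for the former). In each of these the 3 libraries kept a high score.

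In the other families the gene with the most windows is given by its strongest control window, with RMS in control, low dose and high dose. Nkx6-2, a spinal cord and oligodendrocyte factor, had 5.38, 4.07 and 3.80 in its downstream flank, and Meis1, a Hox partner in blood stem cells, had 4.52, 2.86 and 2.12 in an intron. Runx1 had 4.07, 3.96 and 4.82, Pou2f2 had 3.32, 4.38 and 4.55, and the B cell factor Pax5 had 2.68, 1.28 and 1.20, each in an intron. The control was the highest library in Nkx6-2, Meis1 and Pax5 and not in Runx1 or Pou2f2. Picking windows by their control score favours the control, so this order is no result about the libraries. Lhx4, a pituitary and motor neuron factor, had 3.65, 4.85 and 3.29 in exon 3, and Gata4, a heart factor, had 1.23, 1.19 and 0.753 in an intron. Single windows of Irx6 (1.80, 1.41 and 1.28), Msx3 (1.68, 2.34 and 1.25), Dlx3 (1.62, 2.69 and 1.94) and Emx2 (1.67, 1.52 and 2.04) lay in exons other than exon 1. For Msx3 and Dlx3 the low dose library was the highest.

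The quotient of the scores RMS and AMS, called the factor here, does not vary between libraries and followed CpG content where it could be compared, with Pearson's r = 0.90 over 91 windows that hold a whole RefSeq promoter (a description over windows of these libraries). Its median was 2.4 in the members and 2.6 over all windows. The highest values of the members were in introns of Sox6 (7.6 at chr7:115818001-115818500 and 7.4 at chr7:115589001-115589500) and Sox5 (7.0 at chr6:143883501-143884000) and in exon 3 of Foxo3 (6.8 and 6.4 in adjacent windows). The Sox5 window had RMS 3.90, 4.66 and 4.50 and the stronger Foxo3 window 5.13, 4.82 and 5.87. All of these windows lie inside their genes, away from the RefSeq starts. The highest factor over all windows was 16.4, against 7.6 in the members.

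Levels over all members were close to those of the table as a whole. The median RMS was 1.71 in control, 1.54 with the low dose and 1.40 with the high dose, against 1.80, 1.67 and 1.57 over all windows. The share of member windows above 1 was 92.0%, 78.8% and 68.0%, against 91.0%, 80.4% and 73.5%. All 3 libraries passed the limit in 387 members (60.7%), beside 65.5% of all windows. The control alone passed in 102 (15.99%), the low dose alone in 28 (4.39%) and the high dose alone in 9 (1.41%). Over all windows these shares were 14.3%, 4.15% and 2.07%, in the same order of libraries. A window that was admitted by the control alone had to be lower in the treated libraries, so some surplus of lower windows comes with the way the list was made.

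The comparison of the high dose with the control asks where methylation signal differed in sperm after the larger amount of DXR. The change was log2((high dose RMS + c)/(control RMS + c)) with c = 0.766, and the limit for calling a window lower or higher was -1 or 1, or 2-fold after c is added. Of the 638 members 24 were lower (3.76%, in 14 genes) and 1 was higher (0.157%). Over all windows 2.52% were lower and 0.0824% higher. Intronic windows were lower more often in the table as a whole (3.3%), and 18 of the 24 were intronic, 3.98% of the member introns. Of the 24, 15 had been admitted by the control alone and 3 were above 1 in every library. The share lies near the background, and no more than that is read from it. The median change of the members was -0.19 (95% order-statistic interval over windows -0.24 to -0.14), beside -0.10 over all windows. This interval and those below treat windows as independent, which neighbouring windows are not. They hold no spread between animals or libraries, so they do not test the gap to all windows.

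The largest drop against control was in Meis2, a Hox partner in limb, heart and brain. Its exon 1 window (chr2:116049501-116050000) had RMS 2.68 in control, 1.55 with the low dose and 0.145 with the high dose, a change of -1.92 at the high dose and -0.58 at the low dose. The RPM values of that window, whose nearer edge lay 17.5 kb from the RefSeq gene start, were 1.93, 1.12 and 0.0862. A Meis2 intron window (chr2:115979501-115980000) stayed above 1 in every library, with RMS 4.06, 2.17 and 1.11 and a change of -1.37. In both the control was highest and the high dose lowest.

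Runx2, the master factor of bone formation, had an intronic window (chr17:44704501-44705000) with RMS 2.51, 0.650 and 0.387 and a change of -1.51, and another (chr17:44670001-44670500) with 1.88, 0.745 and 0.485 and a change of -1.08. An intronic window of Runx1 (chr16:92754501-92755000) had 1.33, 0.522 and 0.0977 and a change of -1.28. All 3 had been admitted by the control alone.

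Of the 24 lower windows 11 were in Fox genes, which held 230 of the 638 members. Over all members 3.76% were lower, and over all windows 2.52%. In Foxn3 an intronic window (chr12:99275501-99276000) had RMS 1.70, 0.474 and 0.110 with a change of -1.49, and a window over exons 2 and 3 (chr12:99341001-99341500) had 2.55, 1.48 and 0.678 with a change of -1.20. In Foxp1, 5 intronic windows were lower. The largest difference among them, at chr6:99067501-99068000, was from 2.78 in control and 1.89 at the low dose to 0.718 at the high dose, a change of -1.26, and the window at chr6:99024501-99025000 had 1.498, 0.937 and 0.206 with a change of -1.22. Foxp1 has 75 listed windows, and 57 of them (76%) were below the control at the high dose, beside 66.1% of members and 60.8% of all windows. Among the 15 genes with 10 or more windows this share ran from 35.7% in Pou2f2 to 90.5% in Runx2, so Foxp1 does not stand apart. The median change in Foxp1 was -0.35, beside -0.10 over all windows. None of the 75 was higher by the limit, and the largest rises stayed under it, as at chr6:99275501-99276000 with RMS 4.28, 5.49 and 7.32 and a change of 0.68.

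Among the other genes, a Pou2f2 intron (chr7:25106501-25107000) had RMS 1.46, 0.0949 and 0.150 with a change of -1.28, and a Pax6 window annotated to exon 13 (chr2:105702501-105703000) had 2.81, 0.908 and 0.755 with a change of -1.23. The window of Foxk2 over exons 3 and 6 (chr11:121297001-121297500) had 1.11, 0.0774 and 0.0452 with a change of -1.21. Sox5 had 4 lower intronic windows of its 98. The median control RPM was 1.78 in the 24 lower windows, 2.15 in all members and 2.42 in all windows. The number of reads in a window is not known.

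Low signal was read by splitting all windows into 4 groups of equal size by mean RPM. In the lowest group 7.33% of members and 7.82% of all windows were lower at the high dose, in the next 4.26% and 1.91%, in the one after 1.25% and 0.344%, and in the top group 0% and 0.00559%. The median change of the members ran from -0.42 in the lowest group to 0.10 in the top one, and over all windows from -0.39 to 0.08. The mean takes in the treated libraries, so a window that is lower there is itself moved towards the lowest group. Scaling also mattered. Dividing each library by its median moved the median change of all windows from -0.10 to 0.04. Then 14 members were lower and 1 higher, beside 1.52% and 0.233% of all windows. Quantile normalisation moved the median of all windows to 0.01, with 8 members lower and 4 higher, beside 0.693% and 0.485% of all windows. The members' own medians were -0.07 and -0.06 under these scalings. After the median change of windows of like RPM and factor was subtracted, the members' median was -0.00092 (-0.04 to 0.03), beside 0 over all windows. The gap in the high dose median was then no longer seen. This does not extend to every count. Of the 638 members 6 were then lower and 3 higher, beside 0.328% and 0.672% of all windows. At the low dose the median was -0.031 (-0.06 to 0.01), beside 0, with 5 lower and 7 higher, beside 0.237% and 0.623%.

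The 1 higher window was in Foxn4, a retinal and spinal cord factor. It overlaps exons 7 and 10 (chr5:114255501-114256000), and RMS was 0.755 in control, 2.09 with the low dose and 2.54 with the high dose, a change of 1.12 and, at the low dose, of 0.91. The next largest changes stayed below the limit. Exon 5 of Pax7, the muscle stem cell factor (chr4:139784001-139784500), had 0.377, 0.983 and 1.37 with a change of 0.90, and an intron of Foxn3 (chr12:99325501-99326000) had 0.728, 1.47 and 1.90 with a change of 0.84. In all 3 windows both treated libraries were above the control.

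**Figure D4:**
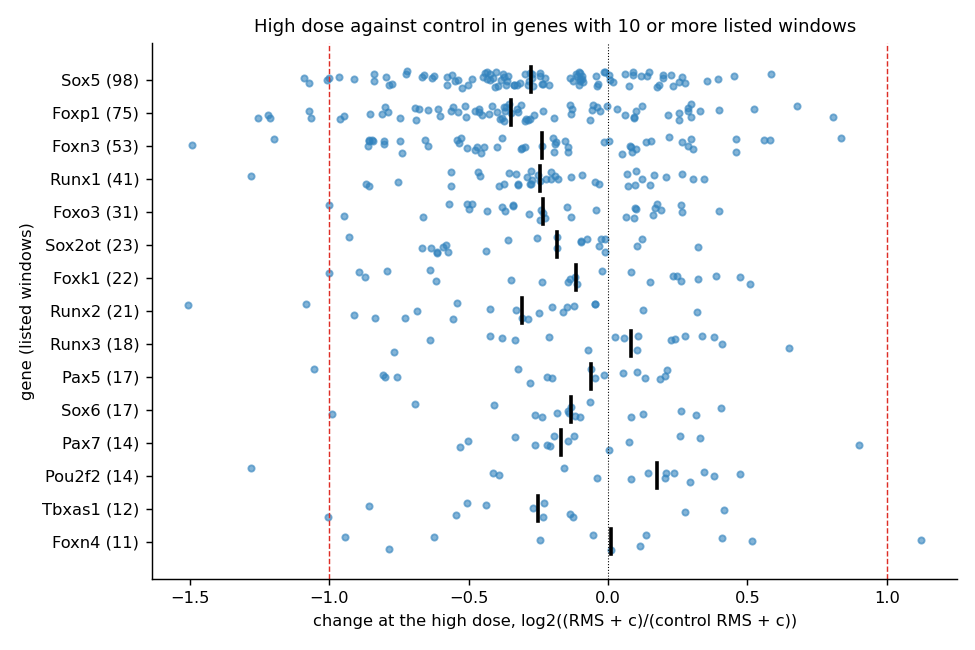
Change at the high dose against control (x axis, log2 scale, dashed lines at -1 and 1) for each window of the 15 genes with 10 or more listed windows (y axis), 1 point per window, with a black bar at the gene's median. Most points lie between the dashed lines, and 1 window, in Foxn4, lies above 1.

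At the low dose, 15 members were lower than control (2.35%, in 9 genes) and 0 higher. Over all windows the shares were 1.24% and 0.12%. Of the 15, 14 had been admitted by the control alone, so they had to be lower, and 12 were intronic. The median change of the members was -0.11 (-0.14 to -0.07, with the same limits on the interval), beside -0.05 over all windows. With quantile normalisation 9 were lower and 7 higher, and with division by the medians 12 and 1. Over all windows the shares were 0.610% and 0.509%, and 0.828% and 0.176%. Both DXR comparisons share the control library and are not independent of each other.

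The largest low dose change was at Pou6f1, where the exon 1 and 2 window named above had RMS 1.28 in control, 0 with the low dose and 0.271 with the high dose, a change of -1.42. The RPM in control was 0.642, among the lowest of the called windows. Next were the Pou2f2 intron above (-1.37 at the low dose), a Sox5 intron (chr6:144454001-144454500) with 1.19, 0.0175 and 0.360 and a change of -1.32, and a Runx2 intron (chr17:44658001-44658500) with 1.20, 0.0500 and 0.458 and a change of -1.27. In the last pair the low dose was the lowest library. A Pax5 intron (chr4:44575001-44575500) had 1.25, 0.172 and 0.427 with a change of -1.10. Foxo3, a factor of stress resistance and ovarian reserve, had 3 lower intronic windows, of which the largest (chr10:42203001-42203500) had 2.20, 0.473 and 0.773 with a change of -1.26. The others, adjacent to each other from chr10:42188001-42189000, had RMS of 1.52, 0.350 and 0.675, and of 1.40, 0.313 and 0.318.

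An intronic stretch of Foxp1 held 3 windows lower at the low dose within 2 kb. Their RMS was 2.51, 0.859 and 0.932 at chr6:98999501-99000000, 1.49, 0.298 and 0.210 at chr6:99000501-99001000, and 4.41, 1.57 and 2.20 at chr6:99001001-99001500. The changes at the low dose were -1.01, -1.09 and -1.15 and those at the high dose -0.95, -1.21 and -0.80. The last of these windows was the 1 lower window of the low dose that was above 1 in every library. The window just before the stretch (chr6:98999001-98999500) had 3.71, 3.13 and 2.80, with changes of -0.20 and -0.33, so the difference did not extend to it at the same size.

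**Figure D5:**
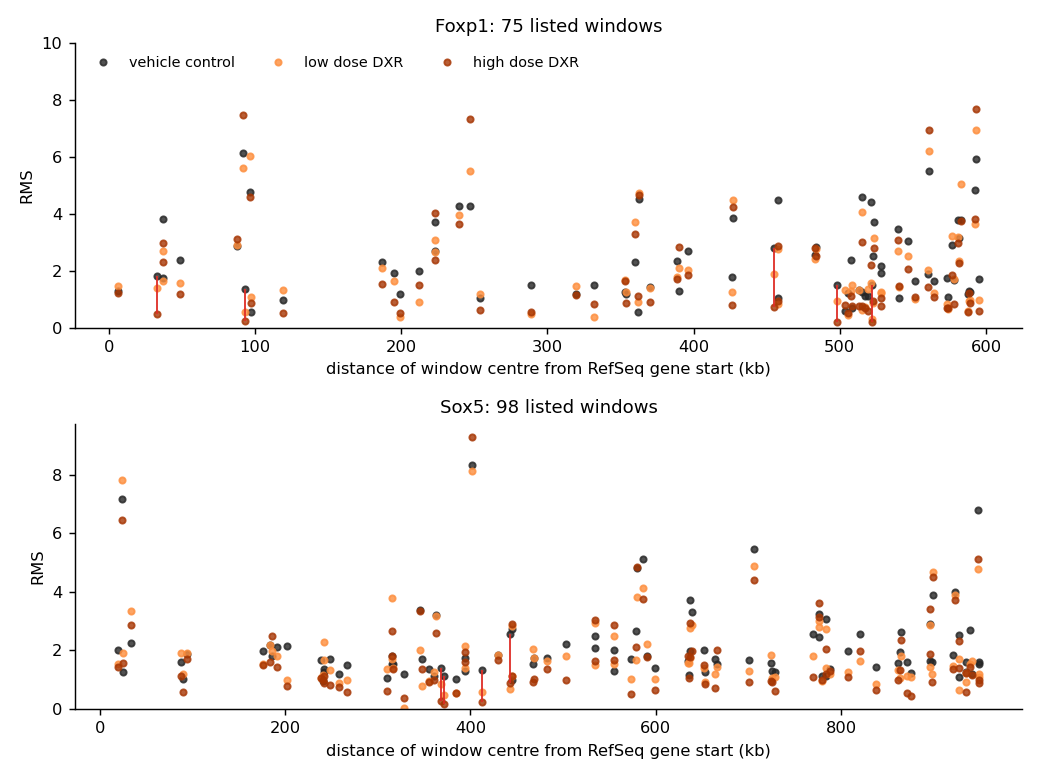
RMS (y axis) in the libraries of control, low and high dose of the listed windows along Foxp1 (75 windows) and Sox5 (98 windows), against the distance from the RefSeq gene start in kb (x axis), with red lines joining control and high dose where the high dose was lower by a change of 1 or more. The windows scatter over the gene bodies, and windows with red lines stand among others whose 3 points lie together.

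The windows lower at both doses were 6 (0.940%, beside 0.548% of all windows), with 1 each in Foxk2, Foxp1, Pax6, Pou2f2, Runx2 and Sox5. As the same control enters both, this count is no independent support for either. In Sox5 that window (chr6:144339001-144339500) had RMS 2.55, 0.670 and 0.890, with changes of -1.21 and -1.002.

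Between the doses, 2 members were lower at the high dose than at the low dose (0.313%) and 0 higher, against 0.33% and 0.0293% of all windows. They were the Meis2 exon 1 window (-1.34) and an intronic window of Pou6f1 (chr15:100582501-100583000), with RMS 1.13 in control, 1.64 with the low dose and 0.426 with the high dose (-1.02). Of all 638 members 35 (5.49%, in 17 genes) passed the limit in at least 1 of the 3 comparisons, beside 3.61% of all windows.

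The 9 Hox windows included 0 past the limit at either dose. Over all windows 2.52% were lower at the high dose and 1.24% at the low dose, so a count of 0 in so few windows tells little. The largest change among them was -0.73 at the low dose in the Hoxb4 window, which the control alone admitted. The Gata, Lhx, Nkx, Dlx, Emx, Irx and Msx windows likewise included 0 past the limit, and they too were few. The nearest to it was an intron of Lhx6, a factor of cortical interneurons (chr2:36097001-36097500, RMS 2.61, 1.08 and 1.49, a change of -0.87 at the low dose). Next was an intron of Gata4 (chr14:63234001-63234500, RMS 1.09, 0.600 and 0.290, a change of -0.82 at the high dose).

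Genes that work with or beside these factors were read in the same way. Of 87 further developmental transcription factor genes 34 were listed, with 375 windows of which 4 lay at exon 1 or upstream. At the high dose 10 of these were lower and 0 higher, with a median change of -0.18, and at the low dose 5 were lower, with a median of -0.12. The lower windows made up 2.67% and 1.33% of the list, near the 2.52% and 1.24% of all windows. The largest differences were in introns of Ebf3 (chr7:137283501-137284000, RMS 1.58, 0 and 0.0452), Prdm16 (chr4:154519501-154520000, 1.81, 0.274 and 0.148) and Gli3 (chr13:15560001-15560500, 1.66, 0.452 and 0.0978), and in an exon of Gli2 (chr1:118842001-118842500, 4.15, 1.55 and 1.16). Gli2 and Gli3 transmit Hedgehog signals. The Gli2 window is the one of these that was above 1 in all 3 libraries.

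The Hox cofactor genes, which code for the Pbx, Pknox and Tgif homeodomain partners, had 6 of 8 listed with 55 windows, of which 4 were lower at the high dose (7.27%, beside 2.52% of all windows) and 1 at the low dose (1.82%, beside 1.24%). Among them were windows of Pknox1, with RMS 1.80, 0.348 and 0.316, and 1.41, 0.387 and 0.0904. Of 31 Polycomb genes 23 were listed with 138 windows, 3 of them lower at the high dose (2.17%, in L3mbtl2 and Phc2) and 0 at the low dose. Of 15 Trithorax genes, which oppose Polycomb, 12 were listed with 116 windows and 0 past the limit at either dose. The median changes at the high dose were -0.23 for the cofactors, -0.13 for Polycomb and 0.0035 for Trithorax.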

How the data were processed

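The data were MBD-seq of sperm DNA, 1 library per group. The authors deposited 1 table of scores for windows of 500 bp. Per the file headers, the RPM values are read densities scaled by the authors to library size, and windows were annotated to Ensembl transcripts with flanks of 500 bp. The deposited score values, RMS and AMS, are methylation scores whose abbreviations and formula the headers do not give. Coordinates are of mm10, a build named in the submitters' processing notes. Neither aligner nor read filters nor scoring program were given. Reads per window are unknown, so no counting interval was computed.

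The 297037 lines were reduced to 1 per window and gene. Exon 1 of any transcript took precedence over other exons, introns and flanks. Changes were log2((RMS + c)/(reference RMS + c)), with c = 0.766, the 10th percentile of RMS above 0. This understates changes of low windows. A change of 1 or more in size was counted. RefSeq tables of GRCm38.p6 gave starts, lengths and promoter sequences, and 79 of the 80 symbols matched. Python 3.11.15, pandas 2.3.3, numpy 2.4.6, scipy 1.17.1 and matplotlib 3.10.9 were used, and the calculation was checked on simulated data.

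Some genes of the families and lists are counted or left out without being named, and are not reported here. The members and lists were chosen with earlier results of these data known. Values were given for the 10 largest changes per direction and comparison, the 10 highest control windows, the 20 highest exon 1 windows, the Hox windows, the strongest window of the gene with the most windows per family, and the 10 highest factors, of which some are summarised. The other windows with values, and the promoters shown, were chosen after their values were seen. Pseudocount, scaling, measure, filter and membership were varied.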

Additional observations from a re-analysis of the deposited data

How the results depend on the processing

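With 1 library per group, no library could be left out and nothing was tested. No paired analysis was possible because each group has 1 library. Varying the pseudocount, keeping only windows above 1 in every library or leaving out other symbols cannot alter a sign. All 42 changes past the limit kept their sign under quantile normalisation and division by library medians. They did so too with the trend over RPM and factor taken off and with RPM in place of RMS. Changes of this size start far from a change of sign, so this tells little. Of the 42, 1 was still past the limit with the pseudocount multiplied by 3 and 13 with the trend taken off. The number was 19 with quantile normalisation, 25 with RPM and 28 with division by library medians. With the pseudocount divided by 3 it was 42, fixed in advance, since a smaller pseudocount enlarges every change. Of the 42, 4 lay in windows that passed RMS 1 in every library.

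The counts were as follows, against 24 lower and 1 higher at the high dose, 15 and 0 at the low dose, and 2 and 0 between the doses. With the pseudocount divided by 3 they were 76 and 4, 37 and 8, and 28 and 6. Over all windows the shares were then 8.50% and 0.538%, 4.88% and 0.781%, and 2.47% and 0.461%. With the pseudocount multiplied by 3 the counts were 1 and 0 at the high dose, 0 lower at the low dose and 0 lower between the doses. The shares of all windows were then 0.0105% and 0.0014%, 0.0035%, and 0.0014%. Quantile normalisation gave 8 and 4, 9 and 7, and 1 lower between the doses. Over all windows it gave 0.693% and 0.485%, 0.610% and 0.509%, and 0.0915%. Division by medians gave 14 lower at the high dose, 1 higher at the low dose and 1 lower between the doses. The shares of all windows were 1.52%, 0.176% and 0.274%. Subtracting the trend gave 6 and 3, 5 and 7, and 1 lower between the doses. Beside these stood 0.328% and 0.672%, 0.237% and 0.623%, and 0.142% of all windows. The windows that passed in every library, which are fewer (387 of 638), gave 3 and 0 at the high dose. They gave 1 lower at the low dose and 0 lower between the doses. Among all windows that passed in every library the shares were 0.281% and 0.0437%, 0.134%, and 0.0437%.

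At the high dose the median over members, -0.19, was -0.25 with the pseudocount divided by 3, -0.11 with it multiplied by 3, -0.057 with quantile normalisation, -0.065 with division by medians, -0.00092 after the trend was subtracted and -0.045 in the windows that passed in every library. At the low dose the median, -0.11, was -0.066 with the pseudocount multiplied by 3, -0.071 with RPM, -0.029 with quantile normalisation, -0.030 with division by medians, -0.031 after the trend was subtracted and -0.033 under the stricter filter. The cause was not tested. The 25 windows at exon 1 became 16 under that filter and 7 when counted by a distance of 1 kb from the RefSeq gene start. Leaving out the symbols that are not factors changed no count by more than 1.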
